A study of Mus musculus with 30 samples.

Results

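The genes followed here are 10 transcription factors of the pancreatic beta cell: Pdx1, Mafa, Neurod1, Nkx6-1, Nkx2-2, Isl1, Pax6, Foxa2, Rfx6 and Foxo1. They were chosen by name, with earlier results of these data known, and each matched 1 of the 54232 gene IDs in the deposited count table. The study asked how cadmium alters the RNA of mouse pancreatic islets, the small endocrine organs that hold the insulin-secreting beta cells. RNA was sequenced from 30 islet libraries in 6 groups, all from male wild-type C57BL/6N mice. Islets isolated and then cultured for 96 hours received 0.5 uM CdCl2 (5 libraries) or vehicle (5 libraries). Mice exposed for 18 weeks received 1 mM CdCl2 (5 libraries) or vehicle (6 libraries), and mice exposed for 6 weeks received 1 mM CdCl2 (4 libraries) or vehicle (5 libraries). The sources used here give neither the age of the mice nor the route of dosing. Nothing in the labels says that the libraries of a group came from separate animals or cultures, so every p-value below measures only the spread between these libraries.

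These proteins form a network that first builds beta cells and then keeps them making insulin. Pdx1 (a homeodomain protein), Mafa (a basic leucine zipper protein) and Neurod1 (a basic helix-loop-helix protein) bind the insulin gene promoters directly and act together on them. Nkx6-1, Nkx2-2, Isl1 and Pax6 are homeodomain proteins that set and hold endocrine identity, in part by keeping genes of other islet cell types silent. Foxa2, Rfx6 and Foxo1 carry winged-helix DNA-binding domains: Foxa2 opens chromatin early in pancreas development, Rfx6 directs endocrine differentiation, and Foxo1 is held out of the nucleus when insulin signalling is active.

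The network's targets carry short binding motifs, and 3 promoters are shown to give the letters these factors read. Each is the 250 bases before the transcription start in RefSeq (GRCm38.p6), written 5′ to 3′ on the gene's own strand. Capitals mark TAAT (or ATTA on the other strand), the core bound by homeodomain proteins such as Pdx1, Nkx6-1 and Isl1, and CANNTG, the E-box bound by Neurod1 with its partners, where N is any base. Ins1, a mouse insulin gene and shared target of the network, starts after chr19:52264047-52264296 on the plus strand and holds 3 homeodomain cores and 2 E-boxes. Foxo1, the member with the largest difference between vehicle groups, starts after chr3:52268087-52268336 on the plus strand, whose last base is the first base of the annotated gene, and holds 2 cores and 1 E-box. Isl1, whose vehicle level did not pass the test between the exposure times, lies on the minus strand, and its window at chr13:116309689-116309938 also holds 2 cores and 1 E-box.
Ins1: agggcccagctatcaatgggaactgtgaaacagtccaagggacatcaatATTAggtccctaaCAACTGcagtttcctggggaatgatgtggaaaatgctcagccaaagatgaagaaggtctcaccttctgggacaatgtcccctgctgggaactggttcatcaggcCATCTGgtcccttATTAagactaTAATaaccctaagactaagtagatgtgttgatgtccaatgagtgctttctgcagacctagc
Foxo1: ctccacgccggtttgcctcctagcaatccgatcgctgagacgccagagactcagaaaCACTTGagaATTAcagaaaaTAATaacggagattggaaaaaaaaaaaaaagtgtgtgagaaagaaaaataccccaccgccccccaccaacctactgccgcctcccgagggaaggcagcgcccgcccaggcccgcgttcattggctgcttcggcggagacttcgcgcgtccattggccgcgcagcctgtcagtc
Isl1: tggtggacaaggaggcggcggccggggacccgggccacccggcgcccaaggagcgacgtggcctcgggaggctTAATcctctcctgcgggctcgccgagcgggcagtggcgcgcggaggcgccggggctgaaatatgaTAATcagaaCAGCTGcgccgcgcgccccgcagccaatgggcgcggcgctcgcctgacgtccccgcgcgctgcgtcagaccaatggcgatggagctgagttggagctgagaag
A TAAT core was present in 55.3% and a CANNTG E-box in 66.0% of all 27025 promoter windows of this length, so these matches are common and are given as a description only. The forkhead motif TGTTTAC, present in 3.09% of windows, and the MAF half-site TGCTGAC, present in 3.72%, were searched on both strands as well and were found in none of these 3 windows. A RefSeq promoter was matched for 9 of the 10 members.

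The count tables held 24197072 to 26549350 gene counts per library in culture, 9092759 to 51852364 at 18 weeks and 49564350 to 58366797 at 6 weeks. The lowest count of any member in any library was 245, for Foxo1, and the highest was 24889, for Nkx6-1. All 7 beta cell markers had counts in every group and took 12.5% to 24.5% of counts over the 30 libraries. The 18 week libraries stood apart in the kinds of RNA they held. Protein-coding genes took 76.7% to 91.5% of their counts, against 98.4% to 98.8% at 6 weeks and 97.6% to 98.1% in culture. Genes of the small structural RNA class misc_RNA took 1.93% to 5.0% of counts at 18 weeks and at most 0.00237% in the other libraries. Library composition and exposure time therefore cannot be told apart in any comparison of 18 weeks with another setting.

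Per kilobase of exon, Mafa was the highest member in culture and at 18 weeks, and Nkx6-1 was the highest at 6 weeks. Levels between genes are given as CPM per kb, depth-normalised counts (CPM) after TMM scaling divided by the length of all annotated exons. That length is 11694 bases for Pax6 and 8665 for Foxo1, against 2158 to 4010 for the other members, so the order depends on it. In CPM without this division, Pax6 averaged 355 and Mafa 298 in vehicle at 6 weeks, and Foxo1 averaged 94.7 and Foxa2 87. In vehicle libraries, Mafa stood at 155 ± 25.8 CPM per kb in culture (SD, n = 5), 115 ± 18.6 at 18 weeks (SD, n = 6) and 109 ± 22 at 6 weeks (SD, n = 5). Nkx6-1 stood at 74.2 ± 8.69 CPM per kb in culture (SD, n = 5), 57.3 ± 5.23 at 18 weeks (SD, n = 6) and 131 ± 4.13 at 6 weeks (SD, n = 5). Foxo1 was last in all 6 groups, at 8.38 ± 0.623, 3.2 ± 0.272 and 10.9 ± 0.405 CPM per kb in the same vehicle groups. The order in vehicle culture ran Mafa, Pdx1, Nkx6-1, Rfx6, Isl1, Neurod1, Pax6, Nkx2-2, Foxa2 and Foxo1, with ranges overlapping between Pdx1 and Nkx6-1, among Rfx6, Isl1 and Neurod1 as neighbours, and between Nkx2-2 and Foxa2. At 18 weeks in vehicle it ran Mafa, Nkx6-1, Pdx1, Neurod1, Rfx6, Foxa2, Isl1, Pax6, Nkx2-2 and Foxo1, and neighbours overlapped from Nkx6-1 through Isl1. At 6 weeks in vehicle it ran Nkx6-1, Mafa, Pdx1, Neurod1, Rfx6, Isl1, Foxa2, Nkx2-2, Pax6 and Foxo1, where the ranges separated only after Neurod1, Nkx2-2 and Pax6. The cadmium groups had the same highest member and the same last member as their vehicle groups in each setting. Summed over the 10 genes, the level was 555 ± 59.7 CPM per kb with cadmium and 564 ± 47.2 with vehicle in culture (SD, n = 5 each). It was 409 ± 39.4 with cadmium (n = 5) and 429 ± 22.6 with vehicle (n = 6) at 18 weeks, and 622 ± 42.2 with cadmium (n = 4) and 587 ± 19.4 with vehicle (n = 5) at 6 weeks (SD).

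**Figure D1:**
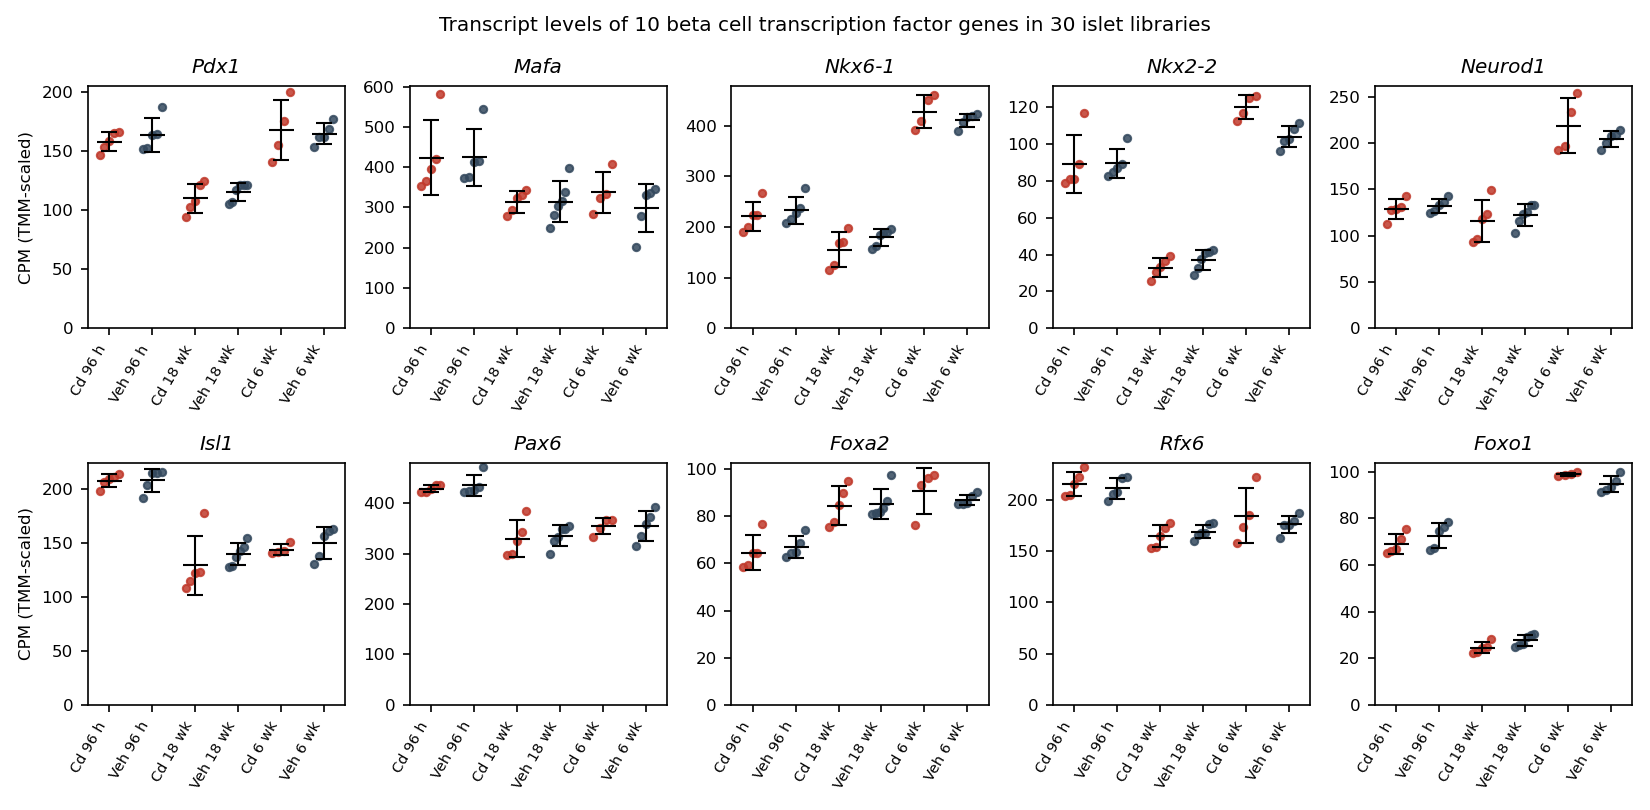
Each panel is 1 gene, with the level in CPM (TMM-scaled, from 0) on the y axis and the 6 groups on the x axis. Each point is 1 library, sorted by value within its group, with cadmium in red and vehicle in dark blue, and the black mark and bar give the mean ± SD of 4 to 6 libraries. Cadmium and vehicle points lie close together in each setting, while Foxo1 and Nkx2-2 sit lower in every 18 week library, at most 30.4 and 42.4 CPM, than in every other library of the plot.

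After 18 weeks of cadmium, none of the 10 transcription factors passed the test, in islets whose acinar RNA differed with the treatment. Across the table, 75 of 20911 genes tested were called, 0.359%, with edgeR's quasi-likelihood test at a Benjamini-Hochberg adjusted p threshold of 0.05, 72 higher (0.344%) and 3 lower (0.0143%). At an unadjusted p under 0.05 there were 0 members and 3804 genes, 18.2%. DESeq2 called 550 genes higher and 215 lower and limma-voom called 0 genes, and neither called a member. Fitted log2 fold changes of the members ran from -0.21 to 0.00065, 9 of 10 below 0, with a median of -0.070 against 0.00029 over all genes tested. The 95% intervals of the 10 fold changes lay between 0.712 and 1.18. These intervals are not adjusted for the number of genes tested and give no limit of detection. Simulated counts with known changes were put through the same fit for this number of libraries, but no smallest change that could be called is given here. In bulk islet RNA, fewer beta cells and less RNA per beta cell cannot be told apart.

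The largest differences at 18 weeks were those of Nkx6-1, which represses alpha cell genes in beta cells, and Foxo1. Nkx6-1 had 168, 115, 124, 170 and 198 CPM in cadmium libraries, against a low of 157, a median of 187 and a high of 196 CPM in vehicle libraries. Cadmium libraries 2 and 3 lay below every vehicle library and library 5 above, and the ranges overlapped. The log2 fold change was -0.21 ± 0.13 (SE; n = 5 and 6; adjusted p = 0.391, edgeR quasi-likelihood with Benjamini-Hochberg). Leaving out cadmium library 2 gave -0.12 and leaving out library 5 gave -0.316, and neither was called. Foxo1 had 24.9, 28.3, 24.4, 22.6 and 22.2 CPM in cadmium libraries, against a low of 24.9, a median of 27.7 and a high of 30.4 CPM in vehicle libraries. Cadmium libraries 1, 3, 4 and 5 lay below every vehicle library, library 1 only just, at 24.92 against 24.94 CPM. Cadmium library 2 lay among the vehicle values. The log2 fold change was -0.17 ± 0.084 (SE; unadjusted p = 0.0598, edgeR adjusted p = 0.295), and with the acinar share as a covariate it was -0.0626 (adjusted p = 0.991). That share itself differed with cadmium, so the covariate cannot tell acinar RNA and cadmium apart.

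Of the other homeodomain factors at 18 weeks, Nkx2-2 had a log2 fold change of -0.17 ± 0.12 (SE; edgeR adjusted p = 0.441), and its cadmium libraries had 39.0, 30.4, 33.1, 25.8 and 36.4 CPM, against a low of 28.8, a median of 39.0 and a high of 42.4 CPM with vehicle. Isl1, a LIM-homeodomain factor that works with the cofactor Ldb1, had 122, 115, 108, 123 and 178 CPM in cadmium libraries, against a low of 128, a median of 140 and a high of 154 CPM in vehicle libraries. Libraries 1 to 4 lay below every vehicle library and library 5 lay above every one of them. Its log2 fold change was -0.11 ± 0.11 (SE; edgeR adjusted p = 0.632), which became -0.252 when library 5 was dropped (adjusted p = 0.0826, over all alternatives 0.0826 to 0.991). Groups that did not overlap at all were found in 0.937% of genes in the higher and 0.588% in the lower direction, and no member was among them. Pax6, which all islet endocrine lineages need, differed by -0.019 ± 0.086 on the log2 scale (SE; edgeR adjusted p = 0.929).

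The direct insulin gene activators differed at 18 weeks by less than the spread between libraries. Mafa averaged 314 ± 26.9 CPM with cadmium (SD, n = 5) and 315 ± 51 CPM with vehicle (SD, n = 6), and its log2 fold change of 0.00065 ± 0.11 (SE) turned below 0 with other scalings, at -0.0046 with RLE scaling and -0.116 with library totals alone. Pdx1 averaged 110 ± 12.5 CPM with cadmium and 115 ± 7.72 CPM with vehicle, and Neurod1 116 ± 22.7 CPM with cadmium and 122 ± 11.7 CPM with vehicle (SD, n = 5 and 6). Foxa2 and Rfx6 had log2 fold changes of -0.011 ± 0.079 and -0.035 ± 0.066 (SE).

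Among genes around the network at 18 weeks, 1 was called. Of 15 tested genes of a list of dedifferentiation markers and genes that beta cells normally keep silent, Ldha, a lactate dehydrogenase subunit of the silent kind, rose to 15.3 ± 5.61 CPM with cadmium (SD, n = 5), against 7.35 ± 0.865 CPM with vehicle (SD, n = 6), a log2 fold change of 1.07 ± 0.20 (SE; edgeR adjusted p = 0.0376). In that list 14 of 15 genes stood above 0, with a median log2 fold change of 0.747 against 0.00029 over all genes tested. With vehicle library 1, 3, 4, 5 or 6 dropped, or with cadmium library 3 dropped, the whole table held 0 called genes, Ldha included. None was called of 30 other islet transcription factors, 16 cofactors, 14 genes of insulin and Foxo signalling and 27 beta cell genes that these factors are known to regulate. The smallest p-values there belonged to Rfx3, a winged-helix factor of ciliated and endocrine cells, at -0.36 ± 0.084 (log2, SE; edgeR adjusted p = 0.0831) and Etv1 at -0.51 ± 0.12 (adjusted p = 0.0872). Akt1, the kinase that restrains Foxo1, stood at 0.26 ± 0.079 (log2, SE), not called. RNA of acinar cells, the digestive enzyme cells that surround islets, moved with cadmium at 18 weeks. The 30 acinar markers took 8.07% ± 6.97 of counts with cadmium (SD, n = 5, range 1.61% to 19.4%) and 0.842% ± 0.515 with vehicle (SD, n = 6, range 0.261% to 1.8%), with none of the 30 at 0 in either group. That difference had an exact two-sided permutation p of 0.00433 (adjusted p = 0.039 over 9 marker lists). It still passed without cadmium library 2 (adjusted p = 0.0429) and did not without any other cadmium library (adjusted p = 0.0857 each), and without a vehicle library 0.0714 is the smallest adjusted p that a single list can reach. With the acinar share as a covariate edgeR called 0 genes and 0 members, with 723 genes at an unadjusted p under 0.05. The share itself differed with cadmium, so this fit cannot tell acinar RNA and cadmium apart. The 7 beta markers took 16.3% ± 2.98 with cadmium and 16.1% ± 2.39 with vehicle. Duct cell markers took 0.0661% ± 0.00486 with cadmium and 0.0552% ± 0.00649 with vehicle (SD; exact permutation p = 0.0152, adjusted p = 0.0682). The part of acinar and duct cells in the list of dedifferentiation and silent genes was not tested. Base composition also moved: the median log2 fold change was -0.215 in the sixth of genes of lowest GC content and 0.163 in the highest, the sixth of Pdx1, Mafa, Nkx6-1, Nkx2-2 and Foxa2. With an offset for GC content, an alternative chosen after seeing the data, Nkx6-1 stood at -0.367 and Nkx2-2 at -0.311, still not called.

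After 6 weeks of cadmium, none of the 10 factors was called, and Nkx2-2 stood out by its groups not overlapping. No gene of 18080 tested was called, 0%, with edgeR's quasi-likelihood test. At an unadjusted p under 0.05 there were 1 member and 923 genes, 5.11%. DESeq2 called 9 genes higher and 2 lower and limma-voom called 0 genes, with no member among them. Members' log2 fold changes ran from -0.065 to 0.20, 8 of 10 above 0, with a median of 0.058 against -0.0019 over all genes tested, and their 95% fold intervals lay between 0.86 and 1.42. Nkx2-2, needed for beta cell formation and for keeping beta cell identity, had 113, 117, 125 and 126 CPM in cadmium libraries, against 103, 108, 96.4, 112 and 102 CPM in vehicle libraries. All 4 cadmium libraries lay above all 5 vehicle libraries, by a small margin between the lowest cadmium and the highest vehicle library. The log2 fold change was 0.20 ± 0.053 (SE; 95% fold interval 1.06 to 1.25; unadjusted p = 0.00335, edgeR adjusted p = 0.919). Cadmium libraries were all above the vehicle libraries in 0.93% of genes and all below them in 0.603%. Foxo1 varied least among the cadmium libraries, at 98.2, 98.8, 99.9 and 99.0 CPM with cadmium against 93.6, 100.1, 96.0, 91.3 and 92.2 CPM with vehicle. Cadmium values of Foxo1 lay above 4 of the 5 vehicle libraries and below vehicle library 2.

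The remaining members at 6 weeks overlapped between groups. Mafa was the most variable of them, with 284, 334, 324 and 408 CPM with cadmium and 345, 330, 279, 336 and 201 CPM with vehicle, a log2 fold change of 0.17 ± 0.15 (SE; edgeR adjusted p = 0.92). Vehicle library 5 was the lowest Mafa value of all 30 libraries. Without it the log2 fold change was 0.0627, without cadmium library 4 it was 0.0692, and with the acinar share as a covariate 0.0017. Pdx1 averaged 168 ± 25.5 CPM with cadmium and 165 ± 8.8 CPM with vehicle, and Rfx6 averaged 185 ± 27.2 CPM with cadmium and 176 ± 8.58 CPM with vehicle (SD, n = 4 and 5). None of 30 other islet transcription factors, 16 cofactors, 14 signalling genes, 27 target genes and 16 dedifferentiation and silent genes was called. In the last of these lists 6 genes stood above 0 and 10 below, with a median log2 fold change of -0.0548 against -0.0019 over all genes tested. Among the smallest p-values were those of Gata4 at 0.46 ± 0.18 in the factors and Creb1 at 0.084 ± 0.034 in the cofactors (log2, SE; edgeR adjusted p = 0.919 each). Acinar markers took 5.65% ± 1.88 of counts with cadmium and 3.69% ± 0.836 with vehicle (exact permutation p = 0.0556, adjusted p = 0.286).

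In cultured islets, cadmium for 96 hours left all 10 factors below the threshold while a metallothionein gene rose. The called gene was Mt1, which encodes a metal-binding protein, at 279 ± 23.4 CPM with cadmium and 181 ± 19.4 CPM with vehicle (SD, n = 5 each), a log2 fold change of 0.63 ± 0.071 (SE; edgeR adjusted p = 0.00386). It was 1 of 16743 genes tested, 0.00597%, and 920 genes, 5.49%, and 0 members had an unadjusted p under 0.05. DESeq2 and limma-voom also called 1 gene each, and no member. In vivo Mt1 was not called, at 0.838 ± 0.246 after 18 weeks and 0.221 ± 0.161 after 6 weeks (log2, SE; edgeR adjusted p = 0.142 and 0.919). Members' log2 fold changes ran from -0.073 to 0.032, 7 of 10 below 0, with a median of -0.029 against -0.0022 over all genes tested, and their 95% fold intervals lay between 0.833 and 1.2. Isl1, Pax6 and Rfx6 were bounded most closely, with fold intervals of 0.945 to 1.06, 0.937 to 1.04 and 0.959 to 1.09. Foxo1 had 75.6, 67.0, 71.0, 66.0 and 64.9 CPM with cadmium against 78.3, 76.5, 74.5, 66.4 and 67.5 CPM with vehicle, with overlapping ranges and a log2 fold change of -0.072 ± 0.052 (SE; edgeR adjusted p = 0.91). Nkx2-2 had 81.0, 80.9, 89.5, 78.9 and 117 CPM with cadmium and 103, 87.3, 89.2, 82.8 and 85.1 CPM with vehicle. Cadmium library 5 was the highest of all 10 for Nkx2-2 and for Mafa, and 3 of the other cadmium libraries lay below every vehicle library for Nkx2-2. No member had groups without overlap, as 0.334% of genes had in the higher and 0.496% in the lower direction.

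Lists around the network in culture showed no call. Of 29 other islet transcription factors 12 stood above 0 and 17 below, and of 27 target genes 3 stood above and 24 below. The most one-sided list was that of dedifferentiation markers and genes normally silent in beta cells, with 15 of 15 above 0, a median log2 fold change of 0.42 against -0.0022 over all genes tested, and 0 called. Within it the smallest p-values were those of Slc16a1, a monocarboxylate transporter gene of the silent kind, at 0.541 ± 0.166 and Igfbp4 at 0.764 ± 0.258 (log2, SE; edgeR adjusted p = 0.888 each). Stellate cell markers took 0.109% ± 0.0372 of counts with cadmium and 0.0747% ± 0.024 with vehicle (SD, n = 5 each; exact permutation p = 0.119). Duct cell markers took 0.0756% ± 0.00603 with cadmium and 0.0678% ± 0.00269 with vehicle (SD; exact permutation p = 0.0238, adjusted p = 0.214). The part of stellate and duct cells in that list was not tested. In the other lists the smallest p-values included those of Prox1 at -0.12 ± 0.029 (log2, SE; edgeR adjusted p = 0.888), Glis3 at -0.098 ± 0.034, and the histone acetyltransferase genes Ep300 at -0.12 ± 0.034 and Crebbp at -0.11 ± 0.035. Acinar markers took 0.00925% of counts with cadmium and 0.0108% with vehicle, and Amy2a5, Ctrc and Ptf1a were at 0 in both groups.

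**Figure D2:**
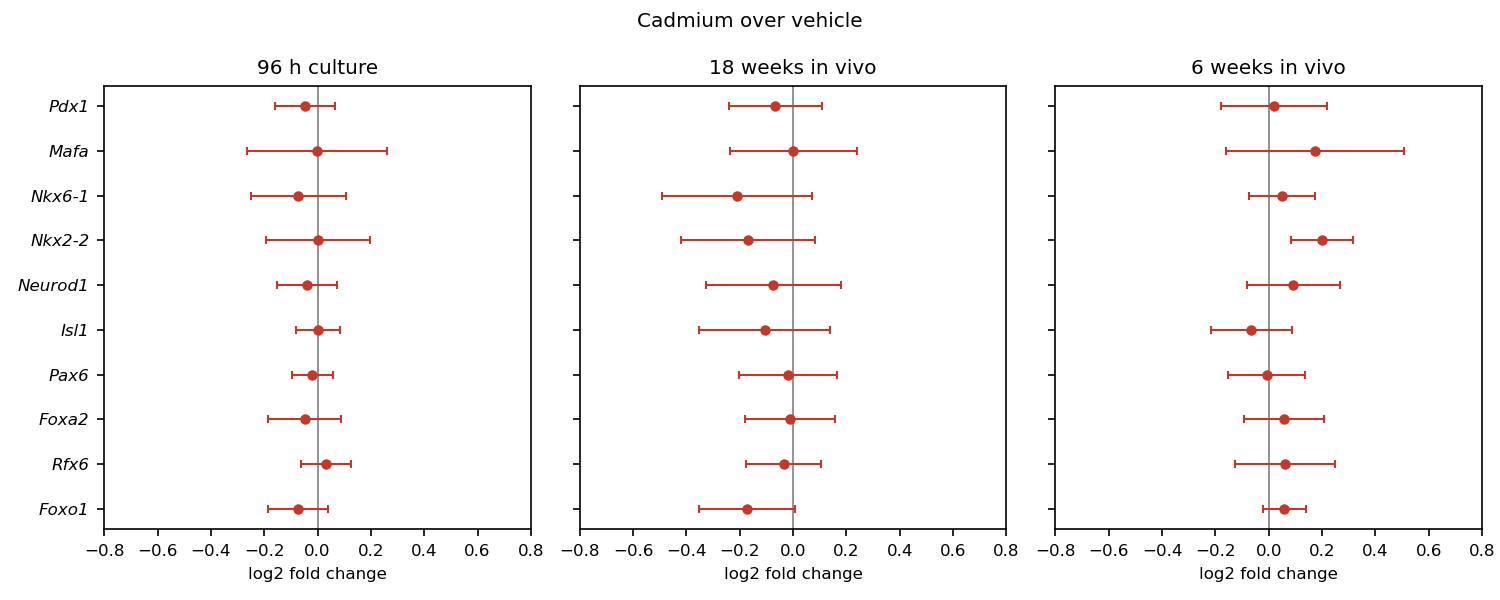
The log2 fold change of cadmium over vehicle is on the x axis for each of the 10 genes, 1 panel per setting, with bars for the 95% interval from edgeR's fit. Every interval includes 0 except that of Nkx2-2 at 6 weeks, whose lower bound is 0.082, no member was called in any panel, and several values near 0 change side with another scaling, as Mafa does at 18 weeks.

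The cadmium effect was then compared between settings as a difference of log2 fold changes, fitted over all 30 libraries. Between 18 and 6 weeks, 382 of 22721 genes had a called difference, 1.68%, and 0 members did, while 4838 genes, 21.3%, and 2 members had an unadjusted p under 0.05. The same call was made for 1 gene with the GC offset. All 10 members had a lower fold change at 18 weeks than at 6 weeks, by -0.022 to -0.38. The members' median was -0.142 against 0.00185 over all genes. The 10 genes were measured in the same libraries and co-vary, so their signs are not independent. The largest differences were those of Nkx2-2 at -0.38 ± 0.15 (SE; unadjusted p = 0.0174, edgeR adjusted p = 0.147) and Foxo1 at -0.24 ± 0.091 (SE; unadjusted p = 0.0138, edgeR adjusted p = 0.133). Over 30 alternatives each, libraries left out included, the adjusted p lay between 0.0519 and 0.283 for Nkx2-2 and between 0.0569 and 0.32 for Foxo1. Of 30 other islet factors 3 had a called difference, each more negative at 18 weeks: Etv1 by -0.62 ± 0.12 (edgeR adjusted p = 0.0305), Prox1, a homeodomain factor, by -0.50 ± 0.11 (adjusted p = 0.034), and Rfx3 by -0.46 ± 0.11 (adjusted p = 0.0345). Of 16 dedifferentiation and silent genes 15 stood above 0, with a median of 0.798 against 0.0019 over all genes. The 1 called was Maf, a large Maf factor related to Mafa, at 1.77 ± 0.46 (adjusted p = 0.0473). Maf was low throughout, at 1.17 ± 0.503 CPM with cadmium and 0.765 ± 0.295 with vehicle at 18 weeks (SD). At 6 weeks it had 2.46 ± 0.44 CPM with cadmium and 4.97 ± 2.74 with vehicle (SD). Its log2 fold change at 6 weeks was -1.02, not called, and that fall enters the difference. All 4 of these calls were lost, with 0 genes called in the whole table, when 6 week vehicle library 2 or 3, 6 week cadmium library 3 or 18 week cadmium library 4 was left out, while leaving out 18 week cadmium library 5 gave 976 genes higher and 718 lower. The cadmium effect in culture minus that at 18 weeks was called for 4 genes, 0.0176%, with 2995 genes, 13.2%, at an unadjusted p under 0.05. That in culture minus that at 6 weeks was called for 0 genes, 0%, with 760 genes, 3.34%, at an unadjusted p under 0.05. DESeq2 called 2 genes higher and 1 lower and limma-voom 0 for the difference between culture and 6 weeks, and neither contrast held a member by edgeR.

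Between the vehicle groups, 5 of the 10 factors were lower at 18 weeks than at 6 weeks and none was higher, in a comparison where most genes were called. Of 20551 genes, 71.8% were called, 35.9% higher and 35.9% lower, so a share of 5 in 10 is below that of the table. Foxo1 fell most, to a low of 24.9, a median of 27.7 and a high of 30.4 CPM at 18 weeks, against 93.6, 100.1, 96.0, 91.3 and 92.2 CPM at 6 weeks. Nkx2-2 had a low of 28.8, a median of 39.0 and a high of 42.4 CPM at 18 weeks, against 103, 108, 96.4, 112 and 102 CPM at 6 weeks. Nkx6-1 had a low of 157, a median of 187 and a high of 196 CPM at 18 weeks, against 408, 390, 419, 423 and 417 CPM at 6 weeks. For each of these genes every 18 week library lay far below every 6 week library, with no overlap. The log2 fold changes were -1.81 ± 0.068 for Foxo1 (SE; edgeR adjusted p = 1.3e-11), -1.52 ± 0.090 for Nkx2-2 (adjusted p = 1.7e-09) and -1.23 ± 0.074 for Nkx6-1 (adjusted p = 1.97e-09), with n = 6 and 5.

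The insulin gene activators split. Neurod1 had a low of 103, a median of 124 and a high of 133 CPM at 18 weeks, against 214, 200, 208, 193 and 207 CPM at 6 weeks, a log2 fold change of -0.78 ± 0.072 (SE; edgeR adjusted p = 1.82e-07). Pdx1 had a low of 105, a median of 119 and a high of 121 CPM at 18 weeks, against 154, 162, 178, 169 and 162 CPM at 6 weeks, a log2 fold change of -0.55 ± 0.064 (SE; edgeR adjusted p = 1.93e-06). Both gave groups with no overlap, which makes 5 members in the lower direction and 0 in the higher, against 25.1% and 28.2% of all genes. Mafa averaged 315 ± 51 CPM at 18 weeks (SD, n = 6) and 298 ± 60.2 CPM at 6 weeks (SD, n = 5), a log2 fold change of 0.042 ± 0.14 (SE; edgeR adjusted p = 0.799). Isl1 at -0.14 ± 0.072, Pax6 at -0.12 ± 0.073, Foxa2 at -0.064 ± 0.062 and Rfx6 at -0.096 ± 0.058 (log2, SE) were not called either, with adjusted p between 0.0947 and 0.365. Isl1 was called without 6 week vehicle library 2, at -0.174 (edgeR adjusted p = 0.0443, over all alternatives 0.000649 to 0.891), and without the filter on low counts, at -0.193 (adjusted p = 0.0415).

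Base composition moved with this comparison. The median log2 fold change was 0.67 in the sixth of genes of lowest GC content and -0.598 in the highest, which holds Pdx1, Mafa, Nkx6-1, Nkx2-2 and Foxa2, while it was 0.0893 in the sixth of Foxo1 and 0.246 in that of Neurod1, Isl1 and Rfx6. With the offset for GC content, Pdx1 stood at -0.0229 and was no longer called (edgeR adjusted p = 0.822). Under that offset Nkx2-2 stood at -0.989, Nkx6-1 at -0.561, Neurod1 at -1.07 and Foxo1 at -1.83, all lower, Isl1 at -0.301 and Rfx6 at -0.307 were called lower as well, and Mafa at 0.606 and Foxa2 at 0.538 were called higher. Scaling also moved the baseline: with 12 granin and secretory granule genes as the scale, the median of all genes stood at 0.353 and 72.7% of calls were higher, against 50% with TMM. On that scale Mafa at 0.389 and Isl1, Pax6, Foxa2 and Rfx6 at 0.211 to 0.286 were called higher, of which Mafa alone lay above that median, while Foxo1 at -1.45, Nkx2-2 at -1.17, Nkx6-1 at -0.882, Neurod1 at -0.432 and Pdx1 at -0.198 were called lower. Acinar markers took 0.842% ± 0.515 of counts in vehicle at 18 weeks (SD, n = 6) and 3.69% ± 0.836 at 6 weeks (SD, n = 5), and beta markers took 16.1% ± 2.39 and 23.7% ± 0.829 in the same groups. With the acinar share as a covariate the 5 members called lower stayed called, Foxo1 at -1.64, Nkx6-1 at -1.46, Nkx2-2 at -1.22, Neurod1 at -0.932 and Pdx1 at -0.442 (edgeR adjusted p at most 0.0157), and Pax6 was called too, at -0.361 (adjusted p = 0.042). Acinar shares did not overlap between these groups, at 0.261% to 1.8% in vehicle at 18 weeks and 2.73% to 5.02% at 6 weeks. This fit therefore cannot tell acinar share and exposure time apart. Alpha cell markers took 1.11% ± 0.185 of counts in vehicle at 18 weeks and 1.7% ± 0.0964 at 6 weeks (SD, n = 6 and 5), and the part of the alpha and beta marker shares in the result was not tested.

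Of the lists around the network, other islet factors, cofactors and target genes had more genes called lower than higher at 18 weeks, beside 35.9% of all genes called in each direction. So did lists outside the network. Base composition moved with this comparison, as given above, and its part in the lists was not tested. Of 16 dedifferentiation and silent genes 1 was called higher and 12 lower, with a median log2 fold change of -1. Of 8 alpha cell markers 0 were higher and 4 lower, and of 6 markers of delta and pancreatic polypeptide cells 0 were higher and 4 lower. Of 29 other islet factors 3 were called higher and 20 lower, with a median log2 fold change of -0.686. Among the lower were Lmx1b at -1.7 ± 0.09 and Insm1, an endocrine zinc finger factor, at -1.04 ± 0.088 (log2, SE; edgeR adjusted p at most 7.72e-08), and the 3 higher ones were Rfx3 at 0.31 ± 0.092, Etv1 at 0.26 ± 0.095 and Myt1 at 0.23 ± 0.098. Of 16 cofactors 3 were called higher and 11 lower, among them Crtc2, a CREB coactivator, at -2.27 ± 0.082, Ssbp3, which stabilises Ldb1 complexes, at -0.84 ± 0.054, and Tcf3, the E-protein that pairs with Neurod1, at -0.96 ± 0.072. Of 14 signalling genes 4 were higher and 5 were lower, among the lower Akt1 at -0.83 ± 0.069 and the insulin receptor gene Insr at -0.44 ± 0.074. Of 27 target genes 3 were higher, Iapp at 0.37 ± 0.12, Trpm5 at 0.48 ± 0.17 and Pcsk1 at 0.24 ± 0.10, and 16 were lower, among them Ptprn, a granule protein gene, at -1.94 ± 0.096 and Kcnj11, the pore of the ATP-sensitive potassium channel, at -0.82 ± 0.079.

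Cultured islets differed from fresh islets of 6 weeks in 9 of the 10 factors, and the directions split. In the vehicle libraries 67.8% of 17605 genes were called, 33% higher and 34.8% lower. Higher in culture were Mafa, Isl1, Pax6 and Rfx6, and lower were Nkx6-1, Neurod1, Foxo1, Foxa2 and Nkx2-2. Nkx6-1 had 277, 237, 227, 215 and 207 CPM in culture, against 408, 390, 419, 423 and 417 CPM at 6 weeks, with no overlap and a log2 fold change of -0.79 ± 0.067 (SE; edgeR adjusted p = 3.14e-07). Neurod1 averaged 132 ± 7.54 CPM in culture and 204 ± 8.31 CPM at 6 weeks (SD, n = 5 each), a log2 fold change of -0.60 ± 0.044 (SE; edgeR adjusted p = 7.82e-08). Mafa had 546, 416, 413, 374 and 375 CPM in culture, against 345, 330, 279, 336 and 201 CPM at 6 weeks, with no overlap and a log2 fold change of 0.54 ± 0.14 (SE; edgeR adjusted p = 0.00401). Isl1 had 215, 204, 192, 216 and 216 CPM in culture, against 138, 131, 157, 164 and 161 CPM at 6 weeks. Its groups did not overlap, and its log2 fold change was 0.50 ± 0.063 (SE; edgeR adjusted p = 1.21e-05). Pax6 at 0.33 ± 0.058 and Rfx6 at 0.29 ± 0.044 rose, and Foxo1 at -0.35 ± 0.050, Foxa2 at -0.35 ± 0.044 and Nkx2-2 at -0.19 ± 0.058 fell (log2, SE; edgeR adjusted p at most 0.011). Groups without overlap were those of 4 members in the higher direction and 4 in the lower, against 24.1% and 29.2% of all genes. Pdx1 stood at 164 ± 14.5 CPM in culture and 165 ± 8.8 CPM at 6 weeks (SD, n = 5 each; edgeR adjusted p = 0.797), and was called higher with library totals alone, at 0.228 (adjusted p = 0.00176), and with the GC offset, at 0.173 (adjusted p = 0.0144). The median log2 fold change was 0.187 in the sixth of genes of lowest GC content and -0.245 in the highest. With the GC offset Nkx2-2 stood at -0.0337 (edgeR adjusted p = 0.635), and with all 30 libraries in 1 fit at -0.217 (adjusted p = 0.084), so its call was lost in both.

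Several of these directions follow the scale used. The median of all genes stood at 0.206 when counts were divided by library totals alone, with 71.6% of calls higher, and at 0.559 with the granin scale, with 88.3% higher, against 48.7% with TMM. On the granin scale Nkx2-2 at 0.372, Foxa2 at 0.215 and Foxo1 at 0.208 turned higher, Neurod1 at -0.034 was not called and Pdx1 was higher at 0.58, all but Pdx1 below the median of all genes on that scale. Insulin transcripts were lower in culture: Ins1 averaged 28700 ± 884 CPM in culture and 64400 ± 2070 CPM at 6 weeks (SD, n = 5 each), a log2 fold change of -1.14 ± 0.065 (SE; edgeR adjusted p = 6.32e-09), and Ins2 stood at -0.80 ± 0.080. Of 27 target genes 5 were called higher and 17 lower, and of 16 dedifferentiation and silent genes 3 were called higher and 7 lower. Of 29 other islet factors 5 were higher, among them Etv1 at 1.12 ± 0.038, and 13 lower, among them Gata4 at -2.49 ± 0.241, Sox4 at -1.16 ± 0.156 and, with the smallest p, Glis3, a zinc finger activator of the insulin gene, at -0.71 ± 0.053. Of 16 cofactors 3 were higher and 10 lower, among the lower Ldb1, the partner of Isl1, at -0.45 ± 0.037 and Men1 at -0.50 ± 0.057. Of 14 signalling genes 4 were higher, among them Akt2 at 1.27 ± 0.052 and Igf1r at 0.95 ± 0.065, and 7 lower, among them Insr at -0.48 ± 0.046 and Foxo4 at -0.54 ± 0.052 (log2, SE). Alpha cell markers took 2.89% ± 0.0839 of counts in vehicle culture and 1.7% ± 0.0964 at 6 weeks (SD, n = 5 each), with the glucagon gene Gcg at 0.573 ± 0.0615 and Slc38a5 at 0.925 ± 0.0837, and the delta cell hormone gene Sst stood at -0.677 ± 0.0747 (log2, SE; all called). The part of these cells in the members' differences was not tested. Acinar markers took 0.0108% of counts in vehicle culture and 3.69% at 6 weeks. With that share as a covariate 0 members were called, and the share is nearly a copy of the setting, so the acinar share and culture cannot be told apart.

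Set against vehicle at 18 weeks, the cultured vehicle libraries were higher in 8 of 10 factors and lower in Foxa2. Of 18449 genes 67.2% were called, 30.6% higher and 36.6% lower. Each vehicle group enters 2 of the 3 comparisons between settings, so these results share libraries. Foxo1 had 78.3, 76.5, 74.5, 66.4 and 67.5 CPM in culture, against a low of 24.9, a median of 27.7 and a high of 30.4 CPM at 18 weeks, with no overlap and a log2 fold change of 1.36 ± 0.072 (SE; edgeR adjusted p = 6.52e-10). Nkx2-2 averaged 89.6 ± 8.06 CPM in culture (SD, n = 5) and 37.2 ± 5.45 CPM at 18 weeks (SD, n = 6), a log2 fold change of 1.24 ± 0.095 (SE; edgeR adjusted p = 2.76e-08). Isl1 at 0.55 ± 0.063, Pdx1 at 0.47 ± 0.069, Mafa at 0.40 ± 0.12, Pax6 at 0.35 ± 0.061, Nkx6-1 at 0.34 ± 0.085 and Rfx6 at 0.29 ± 0.056 were also called higher, and Foxa2 at -0.38 ± 0.065 lower (log2, SE). Neurod1 stood at 132 ± 7.54 CPM in culture and 122 ± 11.7 CPM at 18 weeks (edgeR adjusted p = 0.317). Groups without overlap were those of 7 members in the higher direction, and of Foxa2 in the lower, against 24.9% and 25.8% of all genes. With the GC offset Mafa at 0.237 and Nkx6-1 at 0.0365 were no longer called and Neurod1 at 0.252 was. Neurod1 was also called higher with library totals alone, at 0.272 (edgeR adjusted p = 0.00181), and on the granin scale, at 0.399 (adjusted p = 8.61e-05), where Foxa2 at -0.0709 lost its call (adjusted p = 0.336). Alpha cell markers took 2.89% ± 0.0839 of counts in vehicle culture and 1.11% ± 0.185 at 18 weeks (SD, n = 5 and 6). The median of all genes stood at 0.124 with library totals alone and 0.255 with the granin scale, with 60.3% and 68.5% of calls higher, against 45.5% with TMM. Around the network, 18 of 29 other islet factors were higher and 4 lower, 12 of 16 cofactors higher and 2 lower, 5 of 14 signalling genes higher and 6 lower, and 9 of 27 target genes higher and 8 lower. Of 15 dedifferentiation and silent genes 7 were higher and 2 lower. Lmx1b at 1.44 ± 0.083, Crtc2 at 2.06 ± 0.082 and Ptprn at 1.46 ± 0.088 were among those that were higher, and Ins1 at -0.88 ± 0.11 and G6pc2, an islet glucose-6-phosphatase gene, at -1.04 ± 0.13 were among the target genes that were lower (log2, SE).

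**Figure D3:**
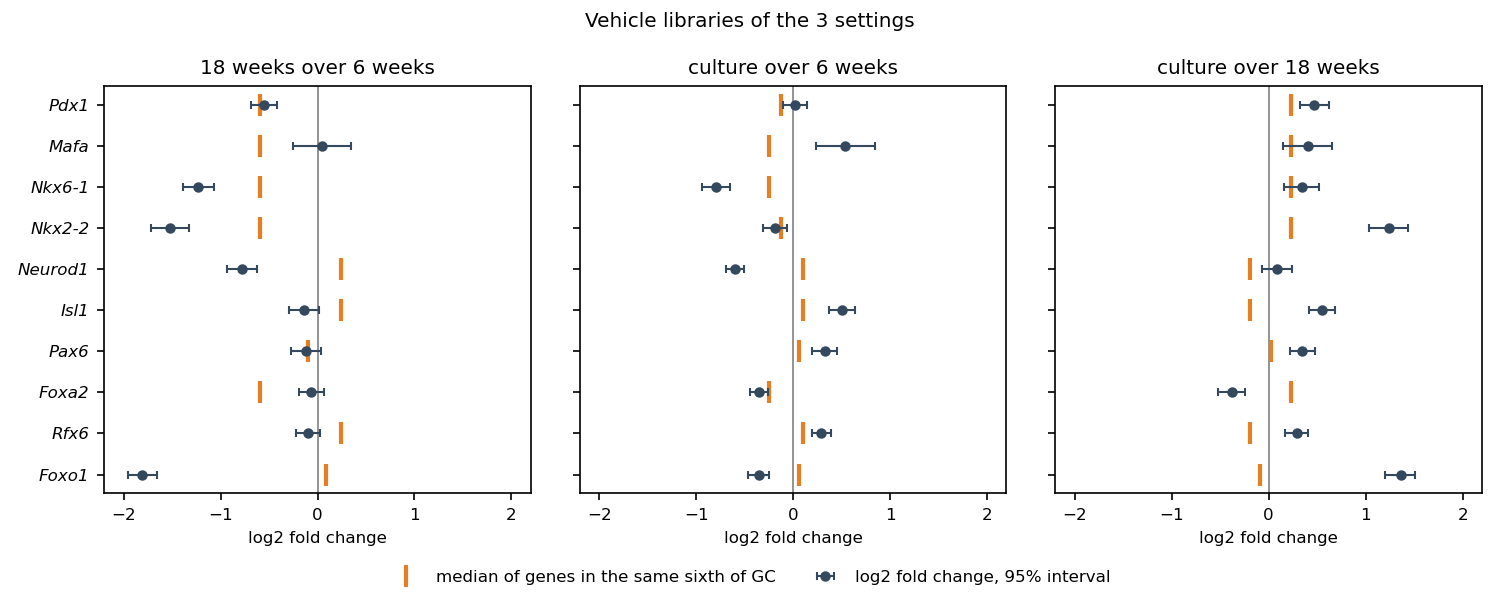
For the vehicle libraries, the log2 fold change between settings is on the x axis for each gene with its 95% interval, and the orange tick is the median of all genes in the same sixth of GC content. Foxo1 lies far left of its tick for 18 weeks over 6 weeks, at -1.81 against 0.0893, whereas Pdx1 lies near its own, at -0.55 against -0.598, and for culture over 6 weeks Nkx2-2, Foxa2 and Foxo1 turn to the other side of 0 with the granin scale.

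Within groups, Mafa varied most from library to library and Pax6 least. The pooled within-group SD of log2 CPM was 0.243 for Mafa, higher than that of 93.7% of 9474 genes with a mean of at least 10 CPM. It was 0.185 for Nkx6-1, 0.181 for Nkx2-2, 0.161 for Neurod1, 0.143 for Isl1, 0.13 for Pdx1, 0.121 for Foxa2, 0.101 for both Rfx6 and Foxo1, and 0.0989 for Pax6, higher than 29.2% of genes. Over all 30 libraries the highest level was 4.89 times the lowest for Nkx2-2, 4.51 times for Foxo1 and 4.02 times for Nkx6-1, and 1.52 times for Rfx6. For Mafa it was 2.9 times.

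Co-variation was described over the 30 libraries after each group's own mean was subtracted, where the points share a library, its depth and its base composition. Of 45 pairs of members 36 had a Pearson r above 0, the median was 0.252 and the range was -0.531 to 0.841. The highest pair was Isl1 with Pax6, at r = 0.841 and Spearman rho = 0.757. Nkx6-1 with Foxa2 had r = 0.705 and rho = 0.634, Nkx6-1 with Pax6 had r = 0.675 and rho = 0.576, Pdx1 with Nkx2-2 had r = 0.674 and rho = 0.733, and Neurod1 with Rfx6 had r = 0.672 and rho = 0.717. Without the 2 libraries farthest from the median these r were 0.779, 0.668, 0.529, 0.738 and 0.691 in that order. Foxo1 ran against Neurod1, at r = -0.531 and rho = -0.476, which became -0.344 without the 2 farthest libraries, and against Isl1, at r = -0.457 and rho = -0.434.

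**Figure D4:**
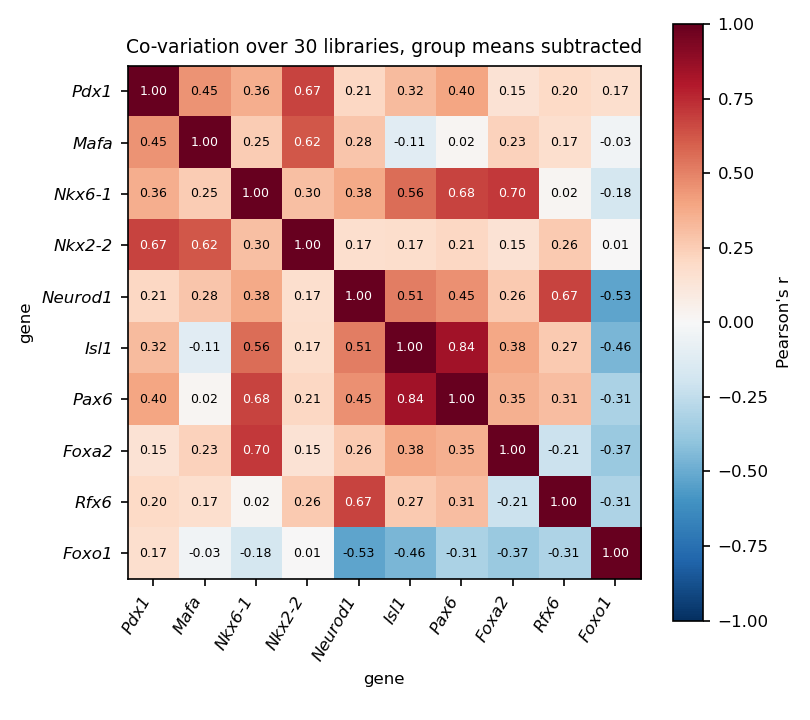
Both axes list the 10 genes, and colour and number give Pearson's r of log2 CPM over 30 libraries after subtracting each group's mean, red above 0 and blue below. The row of Foxo1 holds the lowest values, down to -0.53 with Neurod1, and Isl1 with Pax6 holds the highest, 0.84.

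By the same measure over 9473 other genes, the 2 genes most like each member were as follows. Each r is among the highest of 9473, so a high value is in part due to that choice, and no test was made. Isl1 was closest to Bclaf1 (r = 0.901, rho = 0.843) and Rbm39 (r = 0.883, rho = 0.8), and without the 2 farthest libraries these r were 0.764 and 0.745. Nkx6-1 was closest to Msl3l2 (r = 0.82) and to Ssbp3 (r = 0.773), the cofactor gene named above. Neurod1 was closest to Zdhhc17 (r = 0.807) and Mgea5 (r = 0.787), Foxo1 to Sema4d (r = 0.805) and Wdfy3 (r = 0.777), and Nkx2-2 to Tm2d1 (r = 0.799) and Dnajb14 (r = 0.766). Mafa was closest to Gch1 (r = 0.796) and Lrrc10b (r = 0.728), Rfx6 to Dmtf1 (r = 0.76) and Zfc3h1 (r = 0.747), Foxa2 to Stub1 (r = 0.735) and Hmgn1 (r = 0.714), and Pdx1 to Akirin1 (r = 0.732) and Abca5 (r = 0.684). Pax6 was the case where another member came first, Isl1, followed by Atp5l (r = 0.818). Without each member's 2 farthest libraries, r over all these genes ran from 0.625 for Foxa2 with Hmgn1 to 0.803 for Nkx2-2 with Dnajb14.

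The members' loci hold other transcribed genes. Coordinates are those of GENCODE M21 on GRCm38, and all 10 are protein-coding. Pdx1 (ENSMUSG00000029644) lies at chr5:147269959-147275848 on the plus strand with the antisense gene Plut, Mafa (ENSMUSG00000047591) at chr15:75745490-75748228 on the minus strand, and Nkx6-1 (ENSMUSG00000035187) at chr5:101658139-101664996 on the minus strand. Nkx2-2 (ENSMUSG00000027434) at chr2:147177546-147194243, Neurod1 (ENSMUSG00000034701) at chr2:79452521-79456751 and Foxa2 (ENSMUSG00000037025) at chr2:148042877-148046969 lie on the minus strand of the same chromosome, and Pax6 (ENSMUSG00000027168) at chr2:105668900-105697364 lies on its plus strand. Isl1 (ENSMUSG00000042258) lies at chr13:116298281-116309689 on the minus strand, Rfx6 (ENSMUSG00000019900) at chr10:51677756-51730432 and Foxo1 (ENSMUSG00000044167) at chr3:52268336-52353221 on the plus strand. The sources used here give no strand setting for the counting, so reads of overlapping and antisense genes may not be told apart from those of the member.

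Of the overlapping genes, Nkx2-2os shares 278 exonic bases with Nkx2-2 and had 0 to 10 counts per library, and Gm20402 shares 674 with Foxo1 and had 0 or 1 count. Cerkl, which lies on the same strand as Neurod1 and shares 201 exonic bases with it, had 298 to 2048 counts. With vehicle, Cerkl was higher at 18 weeks than at 6 weeks, at 0.35 ± 0.058 (log2, SE; edgeR adjusted p = 7.24e-05), where Neurod1 was lower. The antisense genes 6430503K07Rik of Nkx2-2 at 0.56 ± 0.12 (edgeR adjusted p = 0.000554) and Pax6os1 of Pax6 at 0.79 ± 0.14 (edgeR adjusted p = 0.000143) were higher at 18 weeks too, whereas Nkx2-2 was lower and Pax6 was not called. None of Plut, 6430503K07Rik, Pax6os1, Paupar and Cerkl was called with cadmium in any setting.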

How the data were processed

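Total RNA from islets isolated on a Biocoll gradient and extracted with Trizol was sequenced, per the labels' protocols. Reads were trimmed with cutadapt 1.13, aligned with STAR to mm10 and counted per gene with HTSeq 0.6.1p1, per the submitters' processing notes, which also name DESeq2. The values used are the authors' deposited raw counts per gene, matched to symbols for 54079 of 54232 IDs. Members and gene lists were chosen with earlier results of these data known. Genes passed edgeR's filterByExpr (minimum count 10, minimum total 15), and all 10 members passed in every comparison. Every comparison used only its own pair of groups, with TMM scaling and edgeR 4.0.16's quasi-likelihood test (R 4.3.3), adjusted over all genes tested by Benjamini-Hochberg with a threshold of 0.05. Differences between cadmium effects were fitted on all 30 libraries. CPM shown per library uses TMM over all 30 libraries, so fold changes differ slightly from ratios of these means. DESeq2 1.42.0 and limma 3.58.1 were alternatives, with other scalings, covariates, no filter and each library left out in turn. The procedure was tested on simulated data. All members were named, and other genes by a rule: up to 4 called genes of smallest p per list and direction, or, with none called, the 2 of smallest p, with some left out for length or not reported here. Marker shares were compared by exact permutation tests. Same-numbered cadmium and vehicle libraries correlated at -0.169 to 0.274 at 6 weeks, -0.0951 to 0.428 at 18 weeks and -0.331 to 0.474 in culture, so numbers were not treated as pairs.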

Additional observations from a re-analysis of the deposited data

Results flagged for a closer look

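Within the 60 sets of libraries examined, 1 gene in 1 group each, 5 held a library whose gap to its nearest neighbour was large for the range of its group, and chance alone gives about 1 in 20. Mafa stood at 546 CPM in vehicle culture library 1, where the other 4 libraries had 374 to 416 CPM, and Pax6 stood at 472 CPM in that same library, where the others had 422 to 433 CPM. Nkx2-2 stood at 117 CPM in cadmium culture library 5, where the others had 78.9 to 89.5 CPM. Isl1 stood at 178 CPM in cadmium library 5 at 18 weeks, where the others had 108 to 123 CPM. Foxa2 stood at 97.8 CPM in vehicle library 4 at 18 weeks, where the others had 81.2 to 86.4 CPM. Why these libraries stand apart was not tested.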

How the results depend on the processing

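Over 92 refits that left out 1 library each and the other settings, the count of members called with cadmium stayed at 0 in all 3 settings, and the differences between cadmium effects held 0 called members throughout. The counts between vehicle groups moved in some settings. For 18 weeks against 6 weeks it was 5 with TMM, 10 with the granin scale, 8 with the GC offset (chosen after seeing the data) and 5 to 6 with a library left out. For culture the acinar covariate gave 0 members against 6 weeks and 3 against 18 weeks, and leaving out a library gave 9 in both. The marker lists differing at 18 weeks numbered 1, or 2 with Ins1 and Ins2 left out of the denominator and 0 to 1 with a library left out.

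Signs that turned with cadmium were of values near 0. Between vehicle groups, signs of several members called with TMM turned as well, as with the granin scale or the acinar covariate. The cause was not tested. For cadmium at 18 weeks these log2 fold changes turned: Mafa to -0.0046 with RLE scaling, -0.116 with library totals, -0.00339 without a filter, -0.0025 with DESeq2, -0.0155 with limma-voom, -0.0029 without acinar and Reg genes, -0.173 with the GC offset, -0.0672 with the acinar covariate and -0.00329 with all libraries in 1 fit. With the acinar covariate Pdx1 went to 0.00722, Pax6 to 0.0478 and Foxa2 to 0.0249, with the granin scale Pax6 to 0.00159 and Foxa2 to 0.0131, and with the GC offset Neurod1 to 0.0298 and Rfx6 to 0.0434. At 6 weeks Pdx1 turned to -0.00477 with library totals, -0.0376 with limma-voom and -0.067 with the acinar covariate, which also turned Neurod1 to -0.0531, Isl1 to 0.0217, Rfx6 to -0.0388 and Pax6 to 0.0499. Pax6 there turned to 0.00495 with limma-voom and 0.0411 with the granin scale. In culture the granin scale turned Pdx1 to 0.00809, Mafa to 0.0665, Neurod1 to 0.0168, Pax6 to 0.0351 and Foxa2 to 0.0107. Mafa there turned to 2.81e-05 with RLE scaling, 0.033 with library totals and 0.00945 with the acinar covariate, and Pax6 to 0.00836 with library totals. Nkx2-2 turned to -0.00107 without a filter, -0.00141 with DESeq2, -0.0541 with limma-voom and -0.00239 with all libraries in 1 fit, and Isl1 in the same settings to -0.0013, -0.000528, -0.00805 and -0.00229, and to -0.00288 with the acinar covariate.

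Between vehicle groups at 18 and 6 weeks, Mafa turned to -0.0141 without a filter, Pax6 to 0.0052, Foxa2 to 0.0586 and Rfx6 to 0.0263 with library totals, and Foxa2 to 0.000479 with RLE scaling and 0.538 with the GC offset. The granin scale turned Isl1 to 0.211, Pax6 to 0.233, Foxa2 to 0.286 and Rfx6 to 0.255. For culture against 6 weeks, Pdx1 turned to -0.0277 without a filter and -0.00999 with all libraries in 1 fit, and Nkx2-2 to 0.0205 with library totals, while the granin scale turned Nkx2-2 to 0.372, Foxa2 to 0.215 and Foxo1 to 0.208. The acinar covariate, nearly a copy of the setting by construction, turned Pdx1 to -1.04, Mafa to -0.902, Isl1 to -0.866, Pax6 to -1.24 and Rfx6 to -0.0388 there, and Nkx6-1 to -0.339, Neurod1 to -0.389 and Pax6 to -0.158 against 18 weeks.

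Leaving out 1 library turned signs within these ranges. At 18 weeks they were -0.0584 to 0.0751 for Mafa, -0.0832 to 0.0168 for Pax6 and -0.0568 to 0.0362 for Foxa2. At 6 weeks they were -0.0751 to 0.0945 for Pdx1, -0.0488 to 0.0324 for Pax6 and -0.0387 to 0.133 for Rfx6. In culture they were -0.0731 to 0.00345 for Pdx1, -0.138 to 0.105 for Mafa, -0.109 to 0.0572 for Nkx2-2, -0.0733 to 0.00483 for Neurod1, -0.0273 to 0.0182 for Isl1 and -0.0308 to 0.00998 for Pax6. Between vehicle groups they were -0.0704 to 0.139 for Mafa at 18 over 6 weeks and -0.0381 to 0.0532 for Pdx1 in culture over 6 weeks.

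Counts over the whole table moved more than those of the members. With cadmium at 18 weeks 72 genes were called higher and 3 lower with TMM, 550 and 215 with DESeq2, 134 and 6 without a filter, 1601 and 895 with all libraries in 1 fit, and 0 with limma-voom, without the 3 libraries of lowest depth, without acinar and Reg genes or with the acinar covariate. The difference between the cadmium effects at 18 and 6 weeks was called for 204 genes higher and 178 lower with TMM, 662 and 723 with DESeq2, 649 and 768 with limma-voom, 1394 and 1152 without the 3 shallowest libraries, 119 and 73 without a filter, 122 and 115 without acinar and Reg genes, and 5 genes or fewer with library totals, the granin scale or the GC offset. With a library left out it ran from 0 genes in either direction to 976 higher and 718 lower, and for culture minus 18 weeks, where 4 genes were called, from 0 to 115 higher and 243 lower. With a replicate block, which treats same-numbered libraries as pairs, the members called did not move. The sources used here do not say whether such libraries share more than a number. Whole-table calls under the block were 1 at 18 weeks, 0 at 6 weeks, and 211 higher and 12 lower in culture against 1 without it. Under it Pax6 at 6 weeks stood at 0.0166 and Nkx2-2 in culture at -0.00815. A library correlated best with its own number in 2 of 5 pairs at 18 weeks, 1 of 4 at 6 weeks and 1 of 5 in culture.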
